A study of Mus musculus with 6 samples.

Results

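The genes described here are 9 genes of the stress-response transcription network: Atf3, Atf4, Atf5, Ddit3, Cebpb, Cebpg, Jdp2, Trib3 and Nupr1. They were taken from the expression tables by symbol, as 9 of 16081 listed genes, and they had been chosen by their SD70 and DMSO values in these same samples, so their differences between the groups are described here without a test. The source was the Lewis line of mouse lung carcinoma cells, exposed for 24 hours to DMSO, the vehicle, in 3 samples or to SD70, an inhibitor of the histone demethylase KDM4C, in 3 samples, and profiled by RNA-seq. The SD70 dose of this experiment was not given in the sources used here, and no knockout or second inhibitor was part of it, so that effects of KDM4C inhibition and other effects of the compound cannot be told apart. The study's methods state for its experiments in general that they were repeated independently, but neither they nor the labels say of these RNA-seq samples which were separate cultures, so the tests below measure the spread between these samples.

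Of the 9 genes, 7 encode basic leucine zipper (bZIP) proteins, which bind DNA as pairs held together by their zippers. In the integrated stress response, kinases that sense amino acid shortage, unfolded protein, viral RNA or haem shortage phosphorylate the translation factor eIF2alpha, which lowers protein synthesis in general but favours translation of the Atf4 mRNA. The ATF4 protein then pairs with C/EBP factors at composite DNA elements and raises genes of amino acid supply together with Ddit3, Atf3 and Trib3. ATF3 and JDP2 mostly repress transcription at AP-1 and cAMP response elements, while CHOP, the product of Ddit3, binds C/EBP partners and is known for its part in stress-induced cell death. RNA was measured in these samples, and protein was not analysed here.

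The promoters of the genes were read first, as the RefSeq windows on GRCm38.p6 that run from 250 bases before to 50 bases after each annotated start. All 9 genes matched by symbol, with 12 starts between them. The letters TTGCATCA, a form of the composite C/EBP and ATF element, were searched on both strands and were found at 3 of the 12 starts, in Atf3, Nupr1 and Jdp2. Of all 32851 starts, 0.895% held them. The stretches below are shown because they hold a match, with the match in capitals and each read 5′ to 3′ on the strand of its gene. The Atf3 stretch is chr1:191183396-191183483 on the minus strand, the Nupr1 stretch is chr7:126625533-126625620 on the minus strand, and the Jdp2 stretch is chr12:85599343-85599415 on the plus strand.
Atf3: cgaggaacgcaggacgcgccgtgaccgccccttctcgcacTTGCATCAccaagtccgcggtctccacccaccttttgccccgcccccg
Nupr1: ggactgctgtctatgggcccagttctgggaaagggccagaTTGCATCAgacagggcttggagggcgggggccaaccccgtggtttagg
Jdp2: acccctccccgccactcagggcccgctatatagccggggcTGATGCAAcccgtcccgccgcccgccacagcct

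In Atf3 and in Nupr1 the match began 110 bases before the start and lay on the gene's own strand. In Jdp2 it began 33 bases before 1 of 3 annotated starts and lay on the opposite strand, so that it reads TGATGCAA here. The looser letters TGATGNAAN, which overlap every TTGCATCA match preceded by a further base on its own strand, were found at 4 of the 12 starts, against 3.95% of all starts. The fourth was Trib3, where the match began at base 14 of the transcript. The AP-1 letters TGANTCA were found at 1 of the 12 starts, that of Ddit3, against 7.81% of all starts. That match began 242 bases before the Ddit3 start and is shown on chr10:127290543-127290597, plus strand.
Ddit3: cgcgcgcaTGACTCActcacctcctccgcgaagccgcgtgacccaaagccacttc

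The cAMP response element TGACGTCA was found at 0 of the 12 starts, against 1.79% of all starts. These are matches of letters within a short window, and elements elsewhere in the genes were not searched.

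All 9 genes were higher with SD70, and in each the lowest SD70 sample lay above the highest DMSO sample. Over all 11552 genes tested, 32.8% had every SD70 sample above every DMSO sample. The log2 fold changes of the 9 genes ran from 1.00 in Cebpb to 3.74 in Atf3 with a median of 1.73, whereas the median over all genes tested was -0.0043. As these values chose the genes, nothing is read from them about the genes as a group. The counts below are the deposited expected counts, which were whole numbers for the 9 genes in every sample, and the group means are counts normalized by edgeR to the mean effective library size.

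Atf4 (NCBI Gene 11911, chr15:80255184-80257545), the central effector of the response, had 7002, 8065 and 9210 counts across the DMSO samples, and the SD70 samples had 30292, 32313 and 28241. Its normalized count was 7829 ± 1005 with DMSO and 31299 ± 703 with the inhibitor (SD, n = 3 each), which is 2.00 on the log2 scale (standard error 0.0713). The DMSO samples were spread more widely than the SD70 samples, with coefficients of variation of 12.8% and 2.25%. Atf5 (NCBI Gene 107503, chr7:44812256-44816658), whose mRNA carries the same type of translational control, had 216, 299 and 280 counts with DMSO, against 573, 685 and 647 after SD70. Its normalized count went from 256 ± 41.3 to 658 ± 68.0 (SD, n = 3 each), or 1.36 on the log2 scale (standard error 0.0976.) Among the 9 genes, Atf5 had the widest relative spread with DMSO, 16.1%. The span of Atf5 shares 571 bases with Nup62 on the opposite strand, which had 974, 1115 and 1145 counts with DMSO, against 1738, 1779 and 1581 after SD70. Whether the authors' counting used strand was not given in the sources used here, and the part of Nup62 reads in the Atf5 count was not tested.

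Ddit3 (NCBI Gene 13198, chr10:127290793-127296291), which encodes CHOP, had 433, 466 and 493 counts with DMSO, against 2769, 2803 and 2639 after SD70. Its normalized count went from 449 ± 25.6 to 2832 ± 62.9 (SD, n = 3 each), or 2.66 on the log2 scale (standard error 0.0601.) The SD70 samples differed by little, with the lowest relative spread of the 9 genes, 2.22%. Trib3 (NCBI Gene 228775, chr2:152337425-152344060) encodes a pseudokinase that is induced by ATF4 and CHOP and holds back ATF4. It had 596, 667 and 720 counts with DMSO, against 4396, 4965 and 5059 after SD70. Its normalized count was 640 ± 55.3 with DMSO and 4986 ± 554 after SD70 (SD, n = 3 each), or 2.96 on the log2 scale (standard error 0.0803.) Nupr1 (NCBI Gene 56312, chr7:126623246-126625470), which encodes a small stress-induced chromatin protein, had 966, 1042 and 1066 counts with DMSO, against 2332, 2238 and 1911 after SD70. The fold of Nupr1 was smaller, 2.25 against 7.79 for Trib3 and 6.30 for Ddit3, from normalized counts of 992 ± 44.1 and 2230 ± 132 (SD, n = 3 each). Its log2 fold change was 1.17 with a standard error of 0.0575. All 2225 bases of its span also lie in Gm39087, a long noncoding RNA gene on the opposite strand that was not analysed here.

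Atf3 (NCBI Gene 11910, chr1:191170296-191183333), a repressor that is induced by many stresses, had 295, 280 and 308 counts with DMSO, against 3393, 3816 and 3793 after SD70. It had the largest fold of the 9 genes, 13.3, from normalized counts of 285 ± 11.9 and 3802 ± 365 (SD, n = 3 each), or 3.74 on the log2 scale (standard error 0.0712.) Jdp2 (NCBI Gene 81703, chr12:85598656-85639878), its closest relative, had 276, 311 and 336 counts with DMSO, against 993, 963 and 905 after SD70. With DMSO the pair had normalized counts of similar size, 298 ± 26.9 for Jdp2, but Jdp2 reached 987 ± 26.9 after SD70 (SD, n = 3 each), or 1.73 on the log2 scale (standard error 0.0725.) Per length, the FPKM of Atf3 was 0.780 ± 0.0789 times that of Jdp2 with DMSO and 3.14 ± 0.307 times after SD70 (SD, n = 3 each). The order of the pair thus turned between the groups.

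Cebpb (NCBI Gene 12608, chr2:167688915-167690432), a C/EBP factor of inflammation and differentiation and a partner of both ATF4 and CHOP, had 632, 772 and 773 counts with DMSO, against 1218, 1478 and 1383 after SD70. Its normalized count went from 702 ± 75.0 to 1408 ± 152 (SD, n = 3 each), or 1.00 on the log2 scale (standard error 0.0818), the smallest of the 9. Cebpg (NCBI Gene 12611, chr7:35046422-35056566), which lacks an activating domain of its own and pairs with ATF4, had 1310, 1309 and 1277 counts with DMSO, against 2659, 2574 and 2629 after SD70. The DMSO samples of Cebpg lay closer together than those of any other of the 9 genes, with a relative spread of 2.27%. Its normalized count went from 1257 ± 28.6 to 2716 ± 169 (SD, n = 3 each), or 1.11 on the log2 scale (standard error 0.0553.) The span of Cebpg shares 1084 bases with Gm45095, a gene on the opposite strand that was not analysed here. By normalized count, DMSO sample 1 was the lowest of its group in 7 of the 9 genes and SD70 sample 1 in 5. Without DMSO sample 1 the log2 fold change fell in those 7 genes, among them Atf4 at 1.91, Atf5 at 1.23 and Cebpb at 0.92. It did not fall in Atf3 at 3.74 or Cebpg at 1.12.

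**Figure D1:**
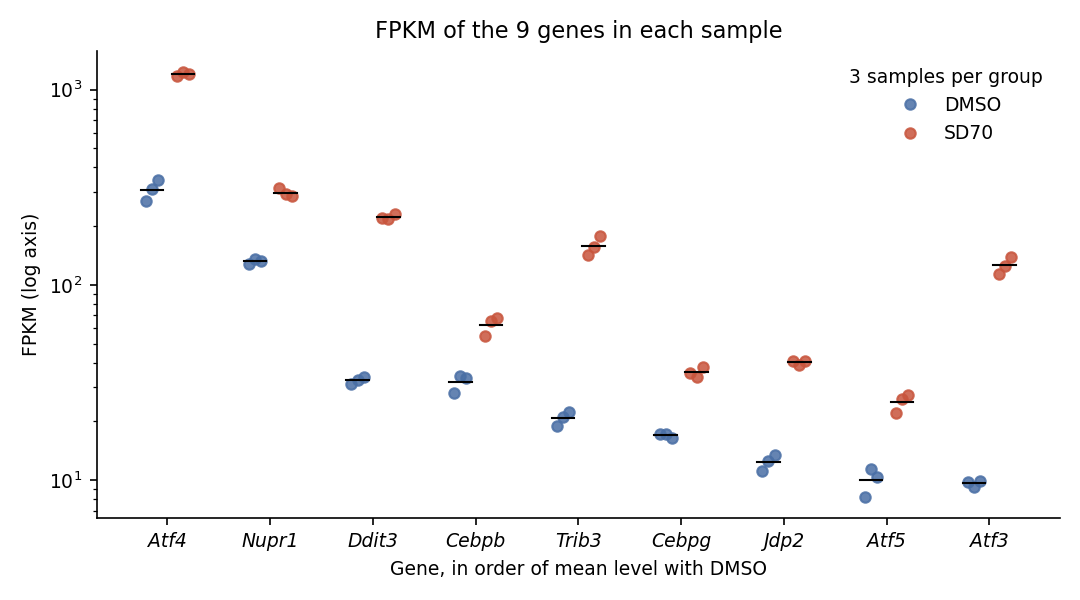
FPKM (log axis) of the 9 genes in each of the 6 samples, with 3 DMSO samples in blue, 3 SD70 samples in red and a bar at each group mean. The groups do not overlap in any of the 9 genes, and Atf3 goes from the lowest mean with DMSO, 9.63, to the fifth place with SD70, 126.

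FPKM values, which scale counts by transcript length and library size, allowed the levels of the genes to be compared. With DMSO, Atf4 stood first at 307 ± 37.0 FPKM and Nupr1 second at 133 ± 3.90. Ddit3 at 32.5 ± 1.3 and Cebpb at 31.8 ± 3.28 overlapped, Trib3 followed at 20.8 ± 1.69 and Cebpg at 17 ± 0.439 (SD, n = 3 each). The lowest levels with DMSO were those of Jdp2 at 12.4 ± 1.14, Atf5 at 10.0 ± 1.60 and Atf3 at 9.63 ± 0.357, and within these the neighbours overlapped. With SD70, Atf4 reached 1204 ± 26.1 FPKM, Nupr1 297 ± 16.2, Ddit3 224 ± 7.67, Trib3 159 ± 18.1 and Atf3 126 ± 12.4 (SD, n = 3 each). The others came below these, with Cebpb at 62.7 ± 6.88, Jdp2 at 40.2 ± 0.925, Cebpg at 35.8 ± 2.21 and Atf5 at 25.2 ± 2.66, and no neighbours in the SD70 order overlapped. Among 48 listed bZIP genes, Atf4 ranked first by mean FPKM in both groups, Ddit3 moved from rank 11 to rank 2 and Atf3 from rank 28 to rank 5. Some of these ranks are not separated from their neighbours, since Ddit3 overlapped Junb and Cebpb with DMSO, and Atf3 overlapped Atf5 with DMSO and Fosl1 at 130 ± 8.42 and Nfe2l1 at 112 ± 10.2 FPKM after SD70 (SD, n = 3 each).

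The bZIP genes were next taken as a pool, because bZIP proteins pair with one another. The 48 genes summed to 1310, 1319 and 1375 FPKM with DMSO, against 2855, 2938 and 2983 after SD70. The 7 bZIP genes described here were chosen on these values, so that their larger share with SD70 follows in part from that choice. They made up 31.5 ± 2.54% of the sum with DMSO and 58.7 ± 0.411% after SD70 (SD, n = 3 each). Most of that shift was in Atf4, which went from 23.0 ± 2.24% to 41.2 ± 0.868%. The share of Ddit3 went from 2.44 ± 0.0427% to 7.64 ± 0.214% and that of Atf3 from 0.722 ± 0.0226% to 4.30 ± 0.332%. The shares of Cebpb, Cebpg and Atf5 overlapped between the groups although their levels were higher with SD70, because the sum rose as well. Atf5 held 0.749 ± 0.117% and 0.859 ± 0.0725%, Cebpb 2.38 ± 0.225% and 2.14 ± 0.190%, and Cebpg 1.27 ± 0.0652% and 1.22 ± 0.0670%. The 41 other bZIP genes together had 914 ± 21.0 FPKM with DMSO and 1208 ± 27.0 with SD70.

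**Figure D2:**
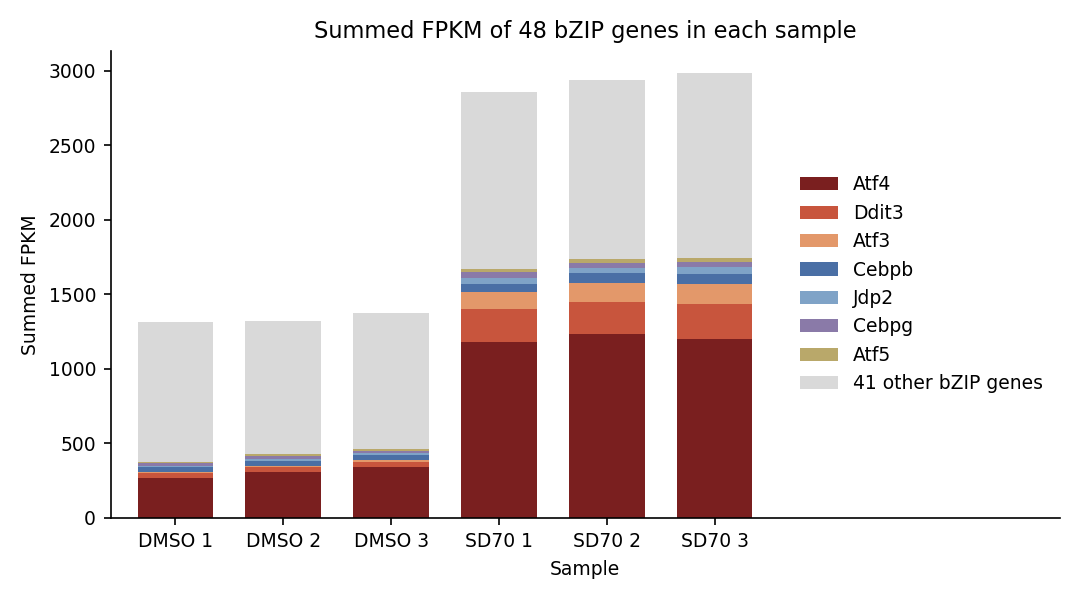
Summed FPKM of 48 bZIP genes in each of the 6 samples, as stacked bars that start at 0, with the 7 bZIP genes described here in colour and 41 others in grey. The coloured part is 28.6% to 33.5% of each DMSO bar and 58.4% to 59.2% of each SD70 bar. The genes in colour were chosen on these values.

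The balance between CHOP and its C/EBP partners at the RNA level was also different. The FPKM of Ddit3 was 1.11, 0.95 and 1.02 times that of Cebpb with DMSO, against 4.03, 3.34 and 3.41 times after SD70. Against Cebpg, Ddit3 stood at 1.92 ± 0.125 times with DMSO and 6.26 ± 0.177 times after SD70 (SD, n = 3 each). Relative to Atf4, the C/EBP genes were lower with SD70, Cebpb from 0.104 ± 0.00685 to 0.0520 ± 0.00513 and Cebpg from 0.0559 ± 0.00803 to 0.0297 ± 0.00221. Ddit3 and Trib3 were higher relative to Atf4, Ddit3 from 0.107 ± 0.00887 to 0.186 ± 0.00867 and Trib3 from 0.0679 ± 0.00280 to 0.132 ± 0.0145. None of these ratios overlapped between the groups, and all of them are built from the values that chose the genes. Atf3 stood at 0.158 ± 0.00488 of the FPKM of Jun, an AP-1 subunit with which ATF3 can pair, with DMSO and at 2.62 ± 0.0937 with SD70.

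The count and FPKM of a gene together imply the transcript length that the authors' quantification used. It is made from the values that chose the genes, and it is given as a description. After removal of an offset common to all genes of a sample, the implied length of Ddit3 was 828, 853 and 834 bases with DMSO, against 761, 762 and 757 after SD70. The means were 839 ± 12.9 and 760 ± 2.57 bases (SD, n = 3 each), and the groups did not overlap. On the log2 scale the difference was -0.14. Of 7590 genes with an implied length, 40 differed by at least as much in size. In the 8 other genes the log2 difference lay between 0.00 and 0.01 in size. The groups also did not overlap in Atf5 and Nupr1, although their rounded means were equal in both groups, at 1562 and 452 bases. Jdp2 varied by sample, from 1445 to 1480 bases, with overlap between the groups. GENCODE M21 lists Ddit3 transcripts of 890, 600 and 105 bases as protein coding and 1 of 969 bases with a retained intron. These are full lengths, whereas the implied length fits an effective length, which is shorter. For Cebpb it was 1344 bases in both groups, against 1504 for the listed transcript. The implied lengths of Ddit3 therefore cannot be matched directly to these transcripts. Ddit3 shares 71 bases of its span with Mars1 and 77 with Mbd6, both on the opposite strand. Mars1 had 1931, 2028 and 2070 counts with DMSO, against 2253, 2548 and 2454 after SD70. Mbd6 had 691, 666 and 667 counts with DMSO, against 646, 756 and 730 after SD70. The part of either gene in the implied length was not tested.

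**Figure D3:**
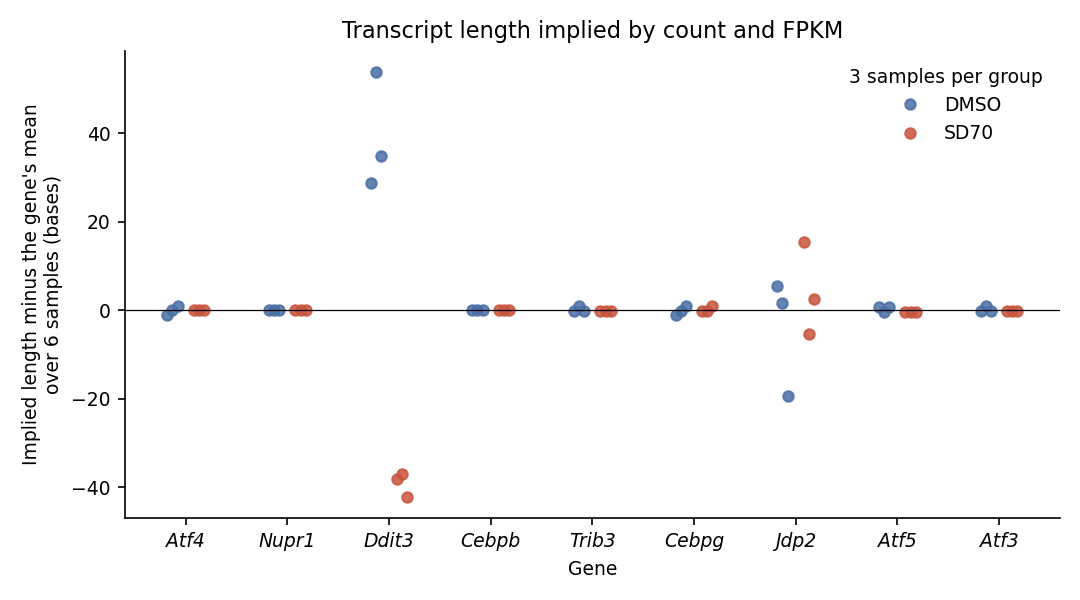
Transcript length implied by count and FPKM, in bases from each gene's mean over the 6 samples, with 3 DMSO samples in blue and 3 SD70 samples in red. The Ddit3 groups stand apart, at means of 839 and 760 bases, whereas the Jdp2 samples are scattered without separating. The groups of Atf5 and Nupr1 also do not overlap, but their rounded means are equal.

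Other bZIP genes were then tested by edgeR's quasi-likelihood test, with p-values adjusted over all 11552 genes. To be called, a gene needed an adjusted p under 0.01 and a change of 1 or more on the log2 scale, which was met upwards by 3.29% and downwards by 2.61% of all genes tested. Of 46 other bZIP genes, 41 were listed and 34 passed the filter on low counts. In this list 5 were called higher and 2 lower, with a median log2 fold change of 0.22. Without DMSO replicate 3, 3 were called higher, since Creb5 and Batf2 were lost. Nfil3, a repressor related to the clock factors, went from 553 to 1589 normalized counts (log2 fold change 1.52, standard error 0.0645, adjusted p = 2.13e-20). Nfe2l1, which controls proteasome genes, rose by 1.46 on the log2 scale (standard error 0.0561, adjusted p = 4.99e-21) and Junb, an AP-1 subunit, by 1.22 (standard error 0.0570, adjusted p = 3.10e-19). Creb5 rose by 1.03 (standard error 0.0608, adjusted p = 2.45e-16), a size just above the minimum, and its call was also lost with limma on FPKM and without DMSO replicate 2 or SD70 replicate 3. Batf2 rose by 1.15 from low counts, 10.7 to 23.8 normalized (standard error 0.312, adjusted p = 0.00189). Its call was lost in DESeq2's Wald test (adjusted p = 0.0282), without DMSO replicate 3 (adjusted p = 0.010 in edgeR) and without SD70 replicate 1 (adjusted p = 0.0293 in edgeR). Maf fell by 1.34 on the log2 scale (standard error 0.215, adjusted p = 1.91e-06) and Fosb, an immediate early AP-1 subunit, fell by 1.08 (standard error 0.155, adjusted p = 3.01e-07).

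With no minimum on the fold, 16 of the 34 were higher and 7 lower, beside 25.8% and 24.2% of all genes tested. Nfe2l2, the antioxidant regulator NRF2, had a log2 fold change of 0.53 (adjusted p = 2.12e-11) and Maff, a small Maf protein that pairs with it, 0.42 (adjusted p = 3.98e-08). Jun had -0.32 (adjusted p = 4.31e-06) and thus differed in sign from Junb. Batf3, at 15.5 and 12.4 normalized counts, and Creb3l1, at 13.9 and 11.4, passed neither test (adjusted p = 0.434 and 0.510). Cebpa, Cebpd and Fos did not pass the filter on low counts: their mean FPKM was 0.0400 and 0.00667, 0.010 and 0.0333, and 0.267 and 0.383 with DMSO and SD70. Among the C/EBP genes analysed, reads were thus concentrated in Cebpb, Cebpg and Ddit3.

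**Figure D4:**
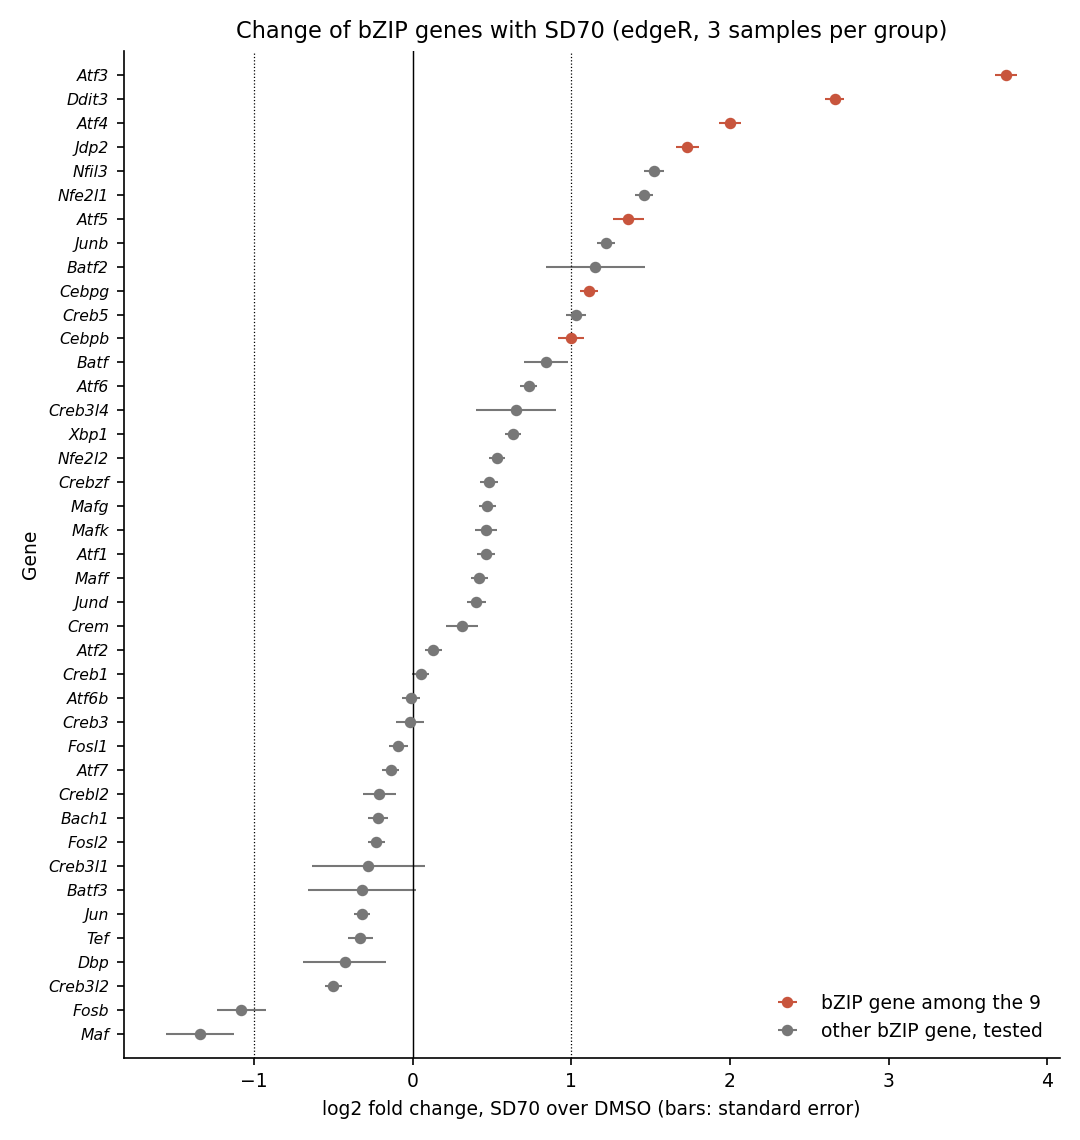
log2 fold change, SD70 over DMSO, of the 7 bZIP genes described here (red) and 34 other bZIP genes tested (grey), with bars for the standard error and dotted lines at 1 in either direction. Atf3, Ddit3, Atf4 and Jdp2 stand above Nfil3, the highest of the other genes at 1.52, while Atf5 and Cebpg lie within the range of the 5 called higher, 1.03 to 1.52, and Cebpb at 1.00 lies just below it. The red genes were chosen on these values, so nothing is read from their place in the order.

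Genes known as ATF4 or CHOP targets were tested in the same fit. Of 40 such genes, which do not include the 9, 35 were tested and 23 were called higher and 0 lower, beside 3.29% and 2.61% of all genes tested, with a median log2 fold change of 1.25. With no minimum on the fold, 31 were higher and 2 lower, beside 25.8% and 24.2%. The list was drawn up with earlier results of these data known, and it is not independent evidence of its direction. Chac1, which degrades glutathione, went from 167 to 2462 normalized counts (log2 fold change 3.88, standard error 0.0805, adjusted p = 1.62e-26), and Gdf15, a secreted stress hormone, from 150 to 2116 (3.81, standard error 0.148, adjusted p = 9.32e-08). Ppp1r15a, which encodes the stress-induced subunit of the eIF2alpha phosphatase, rose by 2.74 on the log2 scale (standard error 0.104, adjusted p = 2.18e-09). Sesn2, a brake on mTORC1, rose by 2.66 (standard error 0.0718, adjusted p = 1.75e-20).

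The neutral amino acid transporter gene Slc1a4 rose by a log2 fold change of 2.62, the glycine transporter gene Slc6a9 by 2.09 and the cationic transporter gene Slc7a1 by 1.90 (adjusted p = 2.88e-09, 4.05e-13 and 4.04e-13). The cystine transporter gene Slc7a11 rose by 1.85 (adjusted p = 7.23e-24), and asparagine synthetase, Asns, by 1.19, from 3362 to 7654 normalized counts (adjusted p = 6.41e-20). Soat2, which esterifies cholesterol, rose by 1.95 (adjusted p = 1.17e-12). The genes that were lower were Ero1l, an oxidase of the endoplasmic reticulum, at -0.75 (adjusted p = 0.00475), and Klhl24 at -0.62 (adjusted p = 1.91e-10), both named after their values were seen. Slc7a3, a cationic transporter gene of the same list, had 0.24 (adjusted p = 0.606) at only 8.70 and 10.3 normalized counts with DMSO and SD70, and did not pass. Tnfrsf10b, the other gene of the list that passed neither rule, had 0.09 (adjusted p = 0.275) at 681 and 723 normalized counts. Of the list's serine synthesis genes, Psph was called at 1.43 (adjusted p = 2.68e-12), while Phgdh at 0.74 and Psat1 at 0.38 passed only with no minimum on the fold (adjusted p = 1.38e-12 and 2.82e-08). Of its proline synthesis genes, Aldh18a1 was called at 1.16 (adjusted p = 9.48e-19), while Pycr1 at 0.96 passed only with no minimum (adjusted p = 1.56e-13). The genes from Slc7a3 to Pycr1 were also named after their values were seen.

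Upstream of Atf4, 7 genes for eIF2alpha, its kinases and its phosphatase subunits were tested. Of these 1 was called higher, Ppp1r15a, and 0 lower, beside 3.29% and 2.61% of all genes tested. Ppp1r15a is in both lists and was already counted among the called ATF4 and CHOP targets. With no minimum on the fold, 3 were higher and 1 lower, beside 25.8% and 24.2%. Ppp1r15b, the constitutive phosphatase subunit, had a log2 fold change of 0.94 (adjusted p = 1.08e-16), and Eif2s1, which encodes eIF2alpha itself, had 0.19 (adjusted p = 0.00126). Among the kinases, Eif2ak3 (PERK), the sensor of the endoplasmic reticulum, was lower at -0.42 (standard error 0.0658, adjusted p = 1.43e-06), from 811 to 606 normalized counts. Eif2ak1 (HRI) at 0.09, Eif2ak2 (PKR) at -0.16 and Eif2ak4 (GCN2), the amino acid sensor, at -0.04 did not pass (adjusted p = 0.165, 0.0369 and 0.657). These are RNA levels, and kinase activity was not measured. The relatives of Trib3 went the other way from it, Trib1 at -0.53 (standard error 0.0783, adjusted p = 4.10e-07) and Trib2 at -0.34 (standard error 0.0741, adjusted p = 0.000183).

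The other arms of the unfolded protein response, which run through ATF6 and XBP1, were looked at for contrast. Of 22 target genes 21 were tested, with a median log2 fold change of -0.04, and 1 was called higher and 0 lower, beside 3.29% and 2.61% of all genes tested. It was Herpud1, which rose by 2.45 (standard error 0.0698, adjusted p = 3.01e-18) and is also known to be induced by ATF4. With no minimum on the fold, 5 of the 21 were higher and 5 lower, beside 25.8% and 24.2% of all genes tested. The chaperone gene Hspa5 (BiP) had a log2 fold change of 0.35 (adjusted p = 7.38e-08) and Dnajb9 had 0.72 (adjusted p = 1.56e-13). The 5 lower genes, named after their values were seen, were Sdf2l1 at -0.55, Sec24d at -0.47, Edem1 at -0.26, Pdia6 at -0.24 and Hsp90b1 at -0.16 (adjusted p from 4.87e-09 in Sec24d to 0.00793 in Hsp90b1). Atf6 itself had 0.73 (adjusted p = 3.16e-14) and Xbp1 had 0.63 (adjusted p = 5.03e-13), in total mRNA with no separation of the spliced form. The difference between the lists was not tested.

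**Figure D5:**
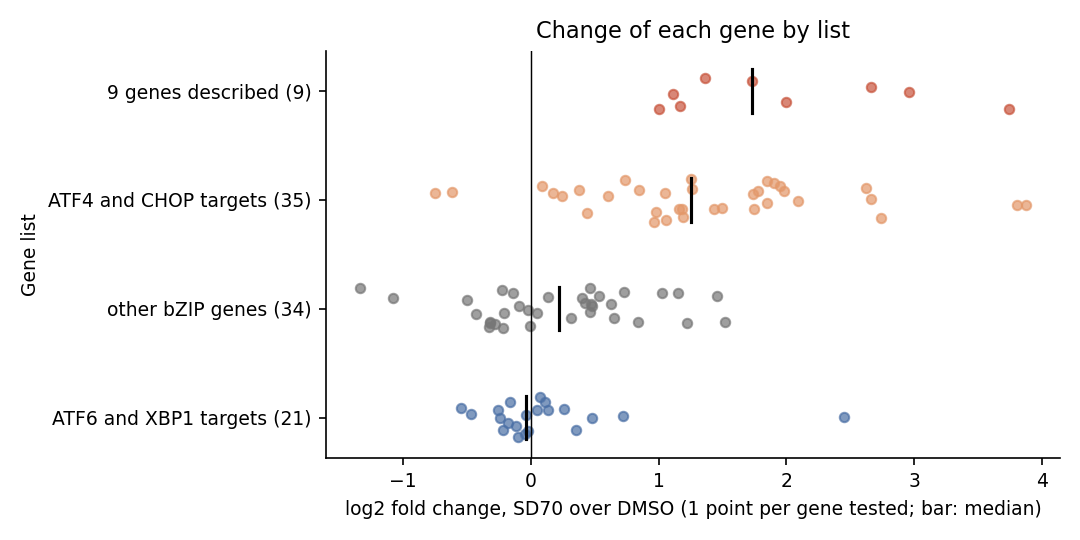
log2 fold change, SD70 over DMSO, of each gene tested in 4 lists, with a bar at the median of each list. The medians are 1.73 for the 9 genes, which were chosen on these values, 1.25 for ATF4 and CHOP targets, 0.22 for other bZIP genes and -0.04 for ATF6 and XBP1 targets.

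The genes most like Atf3, Atf4 and Ddit3 across the 6 samples were found by Pearson correlation among the 9622 genes that averaged 100 normalized counts or more. For Atf3 they were Gcc1 (r = 0.9998), Hvcn1 (0.9998) and Ptp4a1 (0.9997), for Atf4 St5 (0.9994), Chac1 (0.9993) and Caprin1 (0.9992), and for Ddit3 Tsc22d3 (0.9995), Ccl20 (0.9994) and Ccl2 (0.9994). The 6 samples form 2 groups, so that such values mostly restate the difference between the groups, and 16.4% to 17.2% of the genes had r of at least 0.95 with each of the 3. The size of the change differed among these genes, from a log2 fold change of 0.26 in Caprin1 to 3.88 in Chac1.

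The samples held between 15276744 and 17060424 counts each. The line was checked by markers: of 3 mesenchymal markers, Vim had 2489 FPKM with DMSO and 1765 with SD70, Fn1 had 73.6 and 61.1, and Cdh2 had at most 1 count in any sample. Krt8, an epithelial keratin, had 146 and 97.8, and the epithelial markers Cdh1, Epcam and Krt19 and the alveolar marker Sftpc had at most 1 count in any sample. The epithelial keratin gene Krt18 fell by 1.22 on the log2 scale, from 4.32 to 1.81 FPKM (adjusted p = 2.97e-07), and the lung-lineage marker Napsa had 3.54 and 3.34. Of the epithelial and lung-lineage markers listed, 3 were thus seen in every sample and 4 were at or near 0, in cells that the labels give as lung adenocarcinoma. The summed FPKM of 4 listed immune markers was 0.880 to 1.06 with DMSO and 1.16 to 1.82 with SD70, mostly from Lyz2, and that of 3 endothelial markers was 0.880 to 1.07 and 0.960 to 1.16. These sums are near 0 beside the levels of the 9 genes. In bulk RNA, fewer cells of a state and less RNA per cell cannot be told apart.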

How the data were processed

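RNA-seq of 6 samples of Lewis cells was used, 3 with DMSO and 3 with SD70, grouped by the treatment given in the sample labels. The authors aligned BGISEQ-500 reads to GRCm38.p6 with HISAT. Per the labels, the processing notes name StringTie 1.3.3b and also an older mouse build, mm8, and the tables hold no coordinates. The coordinates in the text are those of RefSeq on GRCm38.p6. The labels describe RNA extraction from ground tissue, although the samples are cultured cells. The authors deposited an expected count per gene, not normalized, of which 8.84% to 9.28% per sample were not whole. These were rounded for the tests. The authors also deposited a value whose size fits FPKM with an effective transcript length, although its header says only that it is expression. The counting tool was not given in the sources used here.

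edgeR 4.0.16 (R 4.3.3) was run with filterByExpr, which kept 11552 genes, TMM factors from 0.984 to 1.02 and the quasi-likelihood test with Benjamini-Hochberg adjustment over those genes. Precision is limited by 3 samples a group and, for low genes, by counting error. Implied length was count times a constant divided by FPKM and total count, less the sample's median offset, for genes with at least 200 counts and 5 FPKM. The 9 genes, the lists and the rules were chosen with earlier results of these data known. The text names the 9 genes, called bZIP genes and a set of well-known ones, the 8 most changed called targets averaging 100 normalized counts or more plus Asns, Sesn2, Ppp1r15a and Slc7a11, of the ATF6 and XBP1 targets Hspa5, Dnajb9, Herpud1 and the 2 most changed, the eIF2alpha genes, the Tribbles genes, and the 3 genes most like Atf3, Atf4 and Ddit3. Other genes of the lists were named after their values were seen, as the text says, and the overlapping and marker genes were named as checks.

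Replicate numbers 1 to 3 come from the sample titles. The deviations of same-numbered samples from the means of their groups were correlated, with r of 0.176, 0.254 and 0.157 over 9624 genes, so that a fit with the number as a block was run as well. The other alternatives were DESeq2 1.42.0 (size factors and Wald test), limma 3.58.1 on log2(FPKM + 0.1), other filters, other thresholds and leaving out each sample. In simulated data with 200 genes changed by a log2 fold change of 2, edgeR recovered 200 with 0 false calls. These data were drawn from edgeR's own model, without a link between same-numbered samples, and no gene of low count was changed. They do not bear on calls near the fold minimum or at low counts. Protein sequences were not used here.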

Additional observations from a re-analysis of the deposited data

How the results depend on the processing

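Over 12 alternatives for each of the 9 genes, 107 of 108 log2 fold changes moved by less than the spread between replicates and 0 changed sign. The exception was Ddit3, at 2.78 with limma on log2(FPKM + 0.1) against 2.66 from counts. This follows from its shorter implied length with SD70, since FPKM divides by length. The ranges were 3.66 to 3.80 for Atf3, 1.91 to 2.09 for Atf4 and 0.92 to 1.09 for Cebpb. With the replicate number as a block, Atf4 had 2.01 and the counts of called genes were 23 for ATF4 and CHOP targets, 7 for other bZIP genes and 1 for ATF6 and XBP1 targets, and the block changed no call in these lists. With no minimum on the fold, 5767 genes passed, 2976 higher and 2791 lower, with 23 other bZIP genes and 10 ATF6 and XBP1 targets among them. The higher calls among other bZIP genes ran from 3 to 5 and the ATF4 and CHOP target calls from 21 to 24 over the alternatives that kept the fold minimum. Creb5 fell below that minimum with limma (log2 fold change 0.98) and without DMSO replicate 2, DMSO replicate 3 or SD70 replicate 3 (0.98, 0.99 and 0.96), Shmt2 without DMSO replicate 1 or SD70 replicate 3 (0.99 and 0.97) and Slc1a5 without SD70 replicate 3 (0.95).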
